A study of Homo sapiens with 9 samples.

Results

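Mucin-type O-glycosylation attaches sugar chains to serine and threonine residues of proteins that pass through the Golgi. It was followed here through 8 genes: the GALNT genes GALNT1, GALNT2, GALNT5, GALNT7, GALNT10 and GALNT11, the core 1 synthase gene C1GALT1, and C1GALT1C1, which encodes the chaperone that C1GALT1 needs. GALNT enzymes start each chain by transferring N-acetylgalactosamine, and several of them overlap in the proteins they act on. GALNT7 and GALNT10 belong to the enzymes that prefer proteins already carrying such a sugar. C1GALT1 then adds galactose and so makes core 1, the base of most longer chains. Without the C1GALT1C1 chaperone C1GALT1 is not folded properly and chains stay short, a state known from tumours.

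The members are all probe sets of the array that the platform annotation assigns to exactly 1 gene symbol, equal to 1 of the 8 names. There were 25 such probe sets, of 54613 on the array, for 8 of 19775 named genes. Of these 25, 22 passed the filter on dim probe sets (a mean over the 9 arrays at or above a signal of 11.3), with 1 probe set of GALNT1 and 2 of GALNT5 below it. The arrays measured RNA of U87, an established human glioma line, in 3 groups of 3 biological replicates. Per the labels, each sample was 100000 cells that received 50 nM of a miRNA duplex with a lipid reagent and were collected 24 h later. One group received miR-376a*A, another miR-376a*G and the third a control duplex. All 3 groups were thus transfected, and none of the 9 arrays is of untreated cells. A difference from the control therefore cannot be told apart from an effect of the control duplex itself.

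miR-376a* is the older name of the 5′ strand of the miR-376a hairpin. The A form is the unedited one. The G form stands for the transcript after A-to-I editing of its seed, since inosine is read as G. The unedited 5′ strands of both human miR-376a genes are shown because the seed, bases 2 to 8, is the part of a miRNA that pairs with targets, and an edited base there alters it. They are taken from RefSeq (GRCh38.p14, plus strand) and written 5′ to 3′ with the seed in capitals, for MIR376A1 at chr14:101040788-101040809 and for MIR376A2 at chr14:101040080-101040100. The labels do not give the sequence of the transfected duplexes, and the edited strand is not shown.
hsa-miR-376a-5p: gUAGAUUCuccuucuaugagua
hsa-miR-376a-2-5p: gGUAGAUUuuccuucuauggu
The 7 bases of these seeds are UAGAUUC and GUAGAUU, the second being shifted by a base, and no other mature human miRNA name in that table has either seed. Transcript sequences of the members were not analysed here, so pairing of these seeds with the members was not tested.

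GALNT1 was known from these arrays to be among the genes with the largest rises under both forms, and the other 7 genes are its partners in the pathway. Differences of the members from the control are therefore given as a description. Whether a member passed, in any comparison, is part of that description and no independent support. Differences are on the log2(signal + 16) scale, which understates the change of dim probe sets, and errors are standard errors (SE) of the limma fit. Folds are on that scale too, unless they are said to be ratios of mean signals. A probe set is said to have passed when its Benjamini-Hochberg adjusted p over all 32768 tested probe sets was under 0.05. Of all tested probe sets 21.3% passed for miR-376a*A against control, 25.8% for miR-376a*G against control and 18.1% for miR-376a*A against miR-376a*G. The control arrays are the same 3 in both control comparisons. Control replicates 1 and 2 stood somewhat apart. Around the mean of their group their deviations had an SD of 0.166 and 0.145 (log2), against 0.102 to 0.114 on the other 7 arrays. Calls of the members and of the other named genes that changed without 1 control array are therefore noted. Of the glial and glioma markers VIM, CD44, NES, SOX2 and OLIG2 passed the filter, whereas GFAP, S100B and AQP4 did not, with signals of at most 2.43, 1.67 and 13.4 on any array. VIM and CD44 read 2009 to 2611 and 1821 to 2199. SOX2 and OLIG2 passed but were dim, at 14.4 to 26.1 and 15.2 to 23.5. Of the markers of other cell types on the array, 3 of 5 neuronal, 2 of 5 epithelial, 1 of 3 immune and 2 of 4 endothelial genes passed it. These were RBFOX3, GAD1 and SLC17A7, EPCAM and KRT8, CD3E, and PECAM1 and KDR. RBFOX3, EPCAM and CD3E were also dim, at 2.70 to 18.6, 12.0 to 20.5 and 4.60 to 22.3. SYP, STMN2, CDH1, KRT18, KRT19, PTPRC, AIF1, VWF and CDH5 did not pass. The summed endothelial signal was 127 to 152 with miR-376a*A, 96.2 to 119.5 with miR-376a*G and 81.1 to 90.8 in the control, with PECAM1 at 78.9 to 87.3, 41.3 to 44.8 and 41.5 to 47.6. The summed neuronal signal was 115 to 122, 138 to 149 and 102 to 156, with GAD1 at 68.0 to 77.8, 106 to 115 and 66.0 to 93.3. In the same order the summed epithelial signal was 65.2 to 69.6, 53.4 to 64.6 and 57.3 to 75.3. The summed immune signal was 35.3 to 38.2, 17.2 to 33.6 and 29.3 to 32.3. Their part in the results was not tested. In RNA of whole cultures, fewer cells that express a gene and less RNA per cell cannot be told apart.

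GALNT1, a broadly expressed starter of O-glycan chains, was higher with both forms by 3.30-fold to 5.29-fold on its 4 tested probe sets (signal + 16). As ratios of mean signals the rises were 3.55-fold to 6.52-fold. On the probe set with the highest mean (1568618_a_at) the control arrays read 149.7, 139 and 142. The miR-376a*A arrays read 648, 679 and 669.9, and the miR-376a*G arrays read 667, 660.0 and 640.2. All 6 miR-376a* arrays thus lay above all 3 control arrays, and the arrays of the 2 forms were interleaved. The group means were 665.7 ± 15.7 (SD, n = 3) with miR-376a*A, 655.7 ± 13.8 (SD, n = 3) with miR-376a*G and 143.7 ± 5.54 (SD, n = 3) in the control. That gave a difference from the control of 2.09 ± 0.063 (SE) with miR-376a*A and 2.07 ± 0.063 (SE) with miR-376a*G.

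The other GALNT1 probe sets gave the same picture. Probe set 201724_s_at read 64.1, 48.4 and 50.2 in the control, 351, 337 and 333 with miR-376a*A, and 343, 362 and 356 with miR-376a*G. It stood at 2.35 ± 0.087 and 2.40 ± 0.087 (SE), which ranked 1 among all 32768 probe sets in each of the 2 control comparisons. The signals of 201723_s_at were 146, 155 and 129 in the control, 511, 528 and 549 with miR-376a*A, and 523, 513 and 489 with miR-376a*G. It was higher by 1.78 ± 0.076 and 1.72 ± 0.076 (SE). Again no control array came near a miR-376a* array. Probe set 201722_s_at read 104, 97.4 and 101.0 in the control, 431, 403 and 408 with miR-376a*A, and 378, 405 and 401 with miR-376a*G, with differences of 1.88 ± 0.068 and 1.81 ± 0.068 (SE). The dim 236746_at, which was not tested, read 3.06, 3.67 and 7.56 in the control, 7.79, 8.66 and 13.9 with miR-376a*A, and 14.01, 12.5 and 9.20 with miR-376a*G. Even there every miR-376a* array read above the control arrays, although by little for the lowest of them.

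Between the forms no difference in GALNT1 passed. Since GALNT1 was chosen as high with both forms, the comparison between them is not independent of that choice. The differences of miR-376a*A minus miR-376a*G on 1568618_a_at, 201723_s_at, 201722_s_at and 201724_s_at were 0.02, 0.06, 0.07 and -0.05 (log2), each with an SE between 0.063 and 0.087, with 95% intervals that together ran from -0.24 to 0.22. Over the 9 arrays the genes outside the members whose probe set followed 1568618_a_at most closely were SEC22C, CMTM6, GLO1, P4HA2 and SEC63, with Pearson's r of 0.9988, 0.9982, 0.9978, 0.9975 and 0.9969 on the log2(signal + 16) scale. These values describe 9 points that fall into a low control group and a high group of 6, and carry no test. CMTM6 stabilises PD-L1 at the cell surface, SEC22C and SEC63 have roles in the secretory pathway, GLO1 is a glyoxalase, and P4HA2 is a collagen prolyl hydroxylase subunit. Their differences from the control ranged from 0.93 (SEC63) to 1.97 (GLO1) with miR-376a*A and from 0.88 (SEC63) to 2.04 (GLO1) with miR-376a*G.

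**Figure D1:**
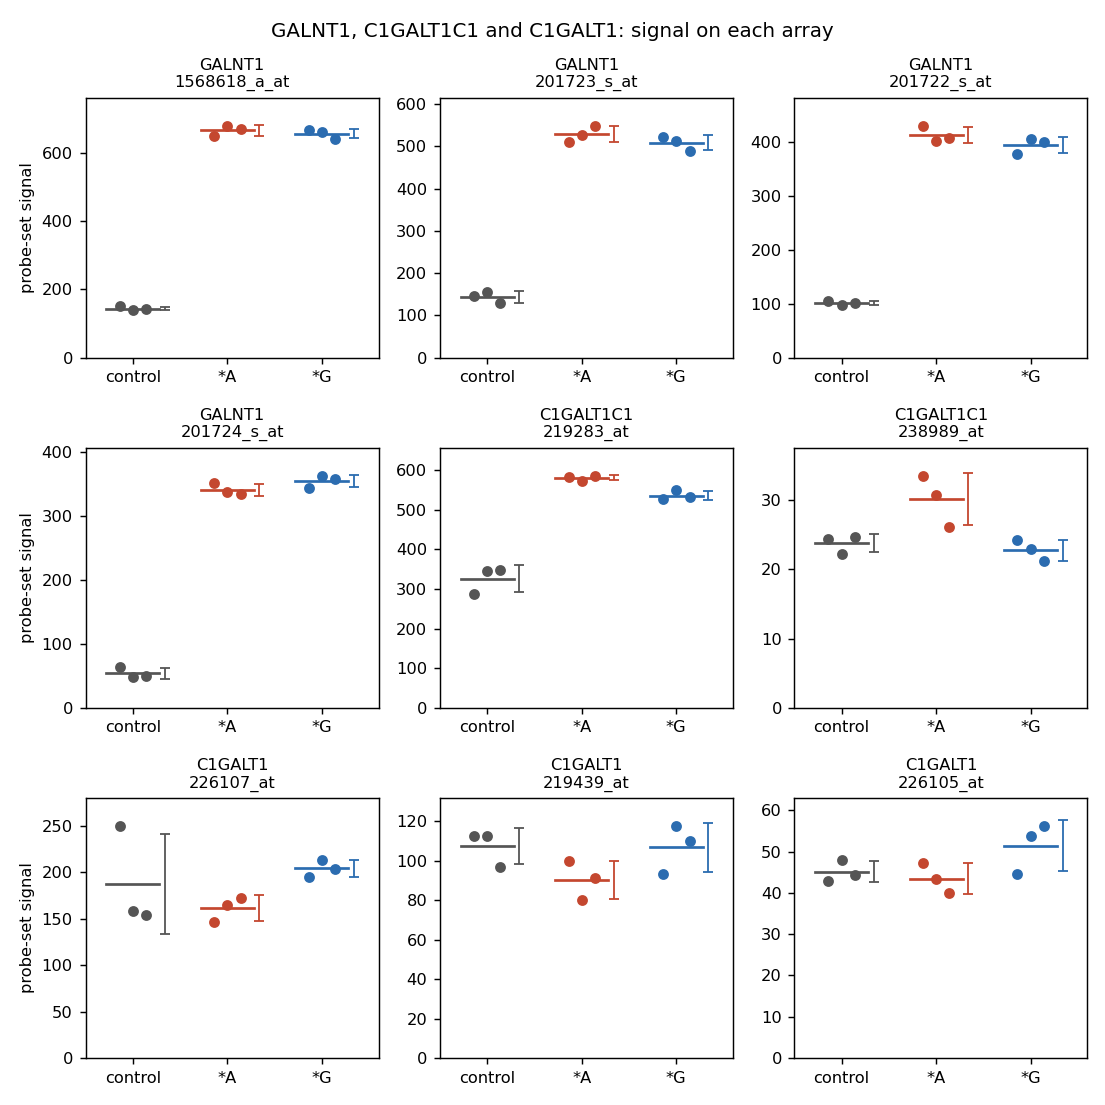
Probe-set signal (y axis, linear, from 0) on each array for the tested probe sets of GALNT1, C1GALT1C1 and C1GALT1, with control, miR-376a*A (*A) and miR-376a*G (*G) on the x axis. Points are arrays, horizontal lines group means and bars ± 1 SD (n = 3). GALNT1 sits 3.30-fold to 5.29-fold above the control on the log2(signal + 16) scale with both forms, C1GALT1C1 219283_at lies between, and control replicate 1 stands alone for C1GALT1 226107_at.

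C1GALT1C1, the chaperone gene, was also higher with both forms, on its brighter probe set. Probe set 219283_at read 287, 344 and 346 in the control, 583, 573 and 585 with miR-376a*A, and 527, 549 and 531 with miR-376a*G. The 3 groups did not overlap, and the control was the lowest. The differences were 0.81 ± 0.075 (SE, 1.75-fold) with miR-376a*A and 0.69 ± 0.075 (SE, 1.62-fold) with miR-376a*G, and both passed. Between the forms it stood at 0.11 ± 0.075 (SE), with a 95% interval from -0.05 to 0.28, and did not pass. The dimmer probe set 238989_at followed in direction with miR-376a*A only. It read 24.5, 22.3 and 24.8 in the control, 33.5, 30.8 and 26.1 with miR-376a*A, and 24.2, 23.0 and 21.2 with miR-376a*G, and none of its differences passed. The differences from the control were 0.21 ± 0.095 (SE) with miR-376a*A, without overlap of the groups, and -0.04 ± 0.095 (SE) with miR-376a*G. With the mean of both probe sets in place of the brighter one, C1GALT1C1 stood at 0.51 and 0.33 and still passed with both forms.

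C1GALT1, the synthase that this chaperone serves, did not pass in any of the 3 comparisons on any of its 3 probe sets. Probe set 226107_at read 249.9, 158 and 154 in the control, 146, 165 and 173 with miR-376a*A, and 195, 214 and 204 with miR-376a*G. Control replicate 1 was above every other array and the other control arrays were below every miR-376a*G array. Its difference for miR-376a*G against control was 0.15 ± 0.141 (SE). Without control replicate 1 that difference was 0.36 and passed. For miR-376a*A it was -0.17 ± 0.141 (SE), and without control replicate 1 it turned to 0.04; neither passed. The other probe sets were 219439_at, at -0.22 ± 0.102 with miR-376a*A and -0.01 ± 0.102 (SE) with miR-376a*G, and 226105_at, at -0.04 ± 0.095 and 0.14 ± 0.095 (SE). Between the forms the values were -0.31 ± 0.141 (226107_at), -0.21 ± 0.102 (219439_at) and -0.18 ± 0.095 (226105_at, SE). Of these, 226107_at passed without control replicate 1, at the same -0.31, and in the fit of the 2 groups alone.

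GALNT11, a GALNT enzyme known for acting on Notch and on receptors of the LDL family, went the opposite way from GALNT1. It has 1 probe set, 219013_at, which read 387, 369 and 338 in the control, 196, 172 and 171 with miR-376a*A, and 249.9, 259 and 286 with miR-376a*G. The 3 groups were separate, with the control highest and miR-376a*A lowest. The means were 365 ± 24.6 (SD, n = 3) in the control, 179.5 ± 14.04 (SD, n = 3) with miR-376a*A and 265 ± 18.7 (SD, n = 3) with miR-376a*G. GALNT11 was lower by 0.96 ± 0.083 (SE, 1.95-fold) with miR-376a*A and by 0.44 ± 0.083 (SE, 1.36-fold) with miR-376a*G, and both passed. The difference between the forms also passed, at -0.52 ± 0.083 (SE, 1.44-fold lower with miR-376a*A, limma adjusted p = 0.000716). It lay between -0.58 and -0.47 in the 21 alternative ways of processing, and passed in each. GALNT11 was chosen with results of these arrays known, so its calls describe these arrays and are no independent test.

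GALNT2, a starter enzyme with lipoprotein-related substrates among others, was lower with miR-376a*G. On 217788_s_at the control read 1043, 1049.8 and 1001, miR-376a*A 1002, 864 and 797, and miR-376a*G 747, 738 and 821. The miR-376a*G arrays lay below the control arrays, while miR-376a*A replicate 1 overlapped with the control. The difference was -0.42 ± 0.081 (SE) with miR-376a*G and passed, and -0.22 ± 0.081 (SE) with miR-376a*A and did not. Without miR-376a*A replicate 1 the latter was -0.31 and passed, as it did after median centring (-0.26), after quantile normalization (-0.26) and with array weights (-0.20). A further pair of probe sets passed as lower with miR-376a*G. Probe set 217787_s_at, at 210.2, 187 and 186 in the control against 157, 166 and 143, stood at -0.30 ± 0.086 (SE). With miR-376a*A it read 149, 172 and 173, also below all control arrays, at -0.22 ± 0.086 (SE), which did not pass but did after median centring (-0.26). Probe set 223991_s_at, at 167, 160.2 and 145 against 131, 128 and 126, stood at -0.27 ± 0.075 (SE). In both, the miR-376a*G arrays did not overlap with the control arrays. With array weights the value of 223991_s_at was -0.18. The call of 217787_s_at ended without miR-376a*G replicate 1 (-0.30) or 3 (-0.25), and that of 223991_s_at without miR-376a*G replicate 2 (-0.27) or 3 (-0.26). The dim 239930_at, with a signal between 18.3 and 31.0 on all arrays, did not pass. With array weights it passed as higher with miR-376a*A (0.28), opposite to 217788_s_at in that fit. The weights there were 6.94 for control replicate 3, against 0.198 and 0.413 for control replicates 1 and 2. Between the forms the 4 probe sets stood at 0.08 to 0.25 (log2) and none passed.

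GALNT10 gave different answers on its 3 probe sets. Probe set 207357_s_at read 159, 126 and 103 in the control, 112, 93.5 and 93.4 with miR-376a*A, and 72.3, 75.9 and 76.9 with miR-376a*G. It was lower with miR-376a*G by 0.66 ± 0.122 (SE) and passed, with all 3 arrays below the other 6, and stood at -0.41 with array weights. With miR-376a*A it stood at -0.32 ± 0.122 (SE), which passed only without control replicate 3 among the arrays left out in turn, at -0.45. The brightest probe set, 212256_at, read 411, 387 and 361 in the control, 426, 405 and 391 with miR-376a*A, and 323, 334 and 361 with miR-376a*G, and passed in neither control comparison. It was higher with miR-376a*A than with miR-376a*G by 0.25 ± 0.073 (SE, limma adjusted p = 0.0296), and the 2 groups did not overlap. That call was lost when replicate 1 or 2 of miR-376a*G, or any 1 of the 3 miR-376a*A arrays, was left out, at 0.22 to 0.28. Probe set 207357_s_at had a like difference between the forms of 0.34 ± 0.122 (SE), which did not pass, but did without control replicate 1 or 3. Probe set 230906_at, at 0.17 ± 0.085 with miR-376a*A and 0.18 ± 0.085 (SE) with miR-376a*G, did not share the direction of 207357_s_at. With the mean of the 3 probe sets GALNT10 stood at -0.22 with miR-376a*G and passed. Between the forms that mean stood at 0.19 and did not pass.

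GALNT7, which prefers partly glycosylated proteins, did not pass in any comparison, and GALNT5 passed on 1 dim probe set. GALNT7 218313_s_at read 688, 586 and 635 in the control, 601, 574 and 552 with miR-376a*A, and 591, 644 and 649 with miR-376a*G, and the groups overlapped in all 3 comparisons. GALNT7 222587_s_at read 563, 392 and 469 in the control, against 399 to 404 with miR-376a*A and 422 to 455 with miR-376a*G. Neither passed, but without control replicate 2, its lowest control array, 222587_s_at stood at -0.34 with miR-376a*A and -0.24 with miR-376a*G and passed in both. GALNT5 was measured on dim probe sets, of which 229555_at was the brightest, at 43.8, 52.4 and 37.5 in the control, 33.1, 33.3 and 28.8 with miR-376a*A, and 31.5, 22.8 and 27.0 with miR-376a*G. All 6 miR-376a* arrays were below the control arrays. It was lower by 0.34 ± 0.112 (SE) with miR-376a*A and by 0.49 ± 0.112 (SE) with miR-376a*G, and both passed. The first call was at the edge, as it ended without control replicate 1 or 2, miR-376a*G replicate 2 or 3, or any 1 of the 3 miR-376a*A arrays, at -0.36 to -0.25. With the mean of the 3 tested GALNT5 probe sets the values were -0.04 and -0.11, and neither passed. The other 4 GALNT5 probe sets had signals of at most 20.9 on any array. The pair of these that was tested gave 0.16 and 0.07 with miR-376a*A and 0.02 and 0.14 with miR-376a*G (log2) and did not pass.

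**Figure D2:**
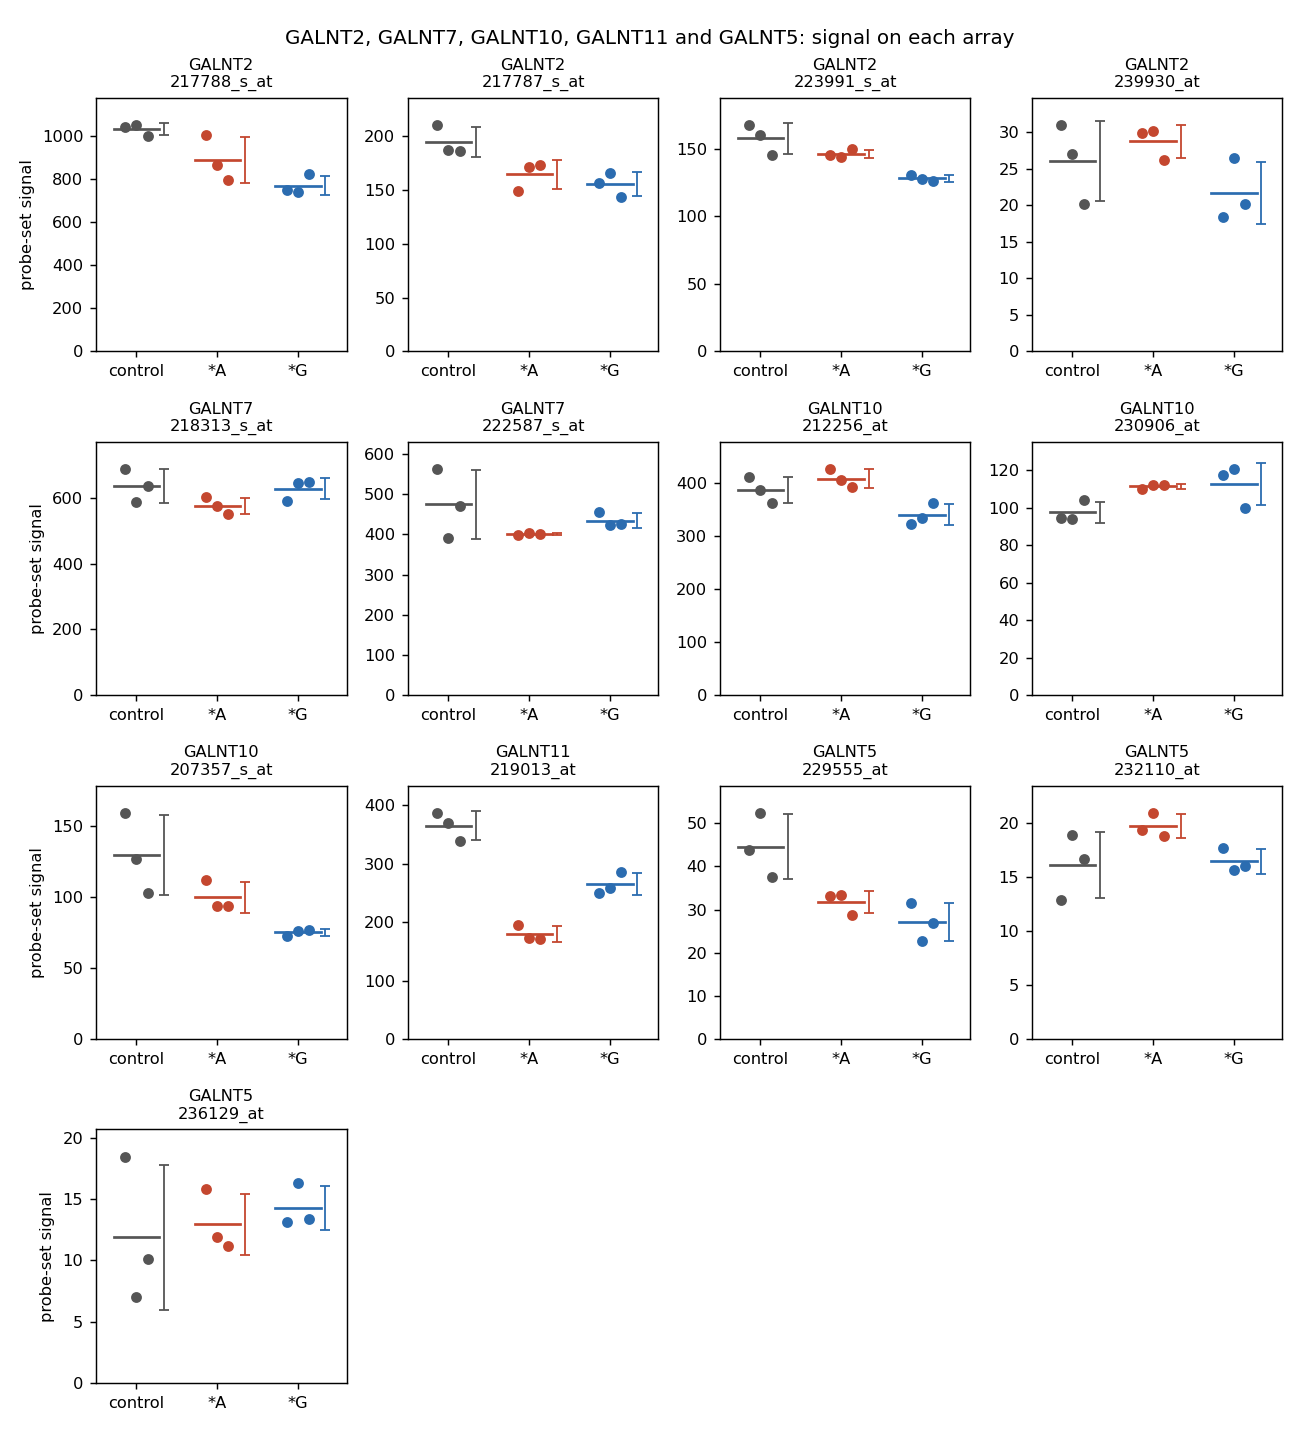
Probe-set signal (y axis, linear, from 0) on each array for the tested probe sets of GALNT2, GALNT7, GALNT10, GALNT11 and GALNT5, with the control, miR-376a*A (*A) and miR-376a*G (*G) on the x axis. Points are arrays, horizontal lines group means and bars ± 1 SD (n = 3). GALNT11 falls into 3 separate groups, and the miR-376a*G arrays are lowest for GALNT2 217788_s_at but for the overlap with miR-376a*A.

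Counted over the 22 tested member probe sets, 5 were higher and 2 lower with miR-376a*A, and 5 were higher and 6 lower with miR-376a*G. Over all tested probe sets 10.3% were higher and 11.1% lower with miR-376a*A, and 11.5% were higher and 14.3% lower with miR-376a*G, from which nothing is read for the members since they were chosen on these comparisons. With each form the higher ones were 4 of GALNT1 and 1 of C1GALT1C1; both comparisons use the same 3 control arrays. Groups without overlap were counted too: 7 members lay higher and 3 lower with miR-376a*A (19% and 17.7% of all probe sets, 36.7% together), and 5 higher and 7 lower with miR-376a*G (17.8% and 21.2%, 39.1% together). Between the forms 6 lay higher and 3 lower with miR-376a*A (23% and 19%, 42% together). Between the forms 2 of 22 passed, GALNT10 212256_at and GALNT11 219013_at, against 18.1% of all probe sets (10.2% higher and 7.95% lower). The members' median difference was 0.02 with miR-376a*A, -0.01 with miR-376a*G and 0.06 between the forms, beside 0.02, -0.02 and 0.03 over all probe sets. Only the GALNT1 probe sets differed from the control at least 2-fold on this scale. After median centring of the arrays, 5 member probe sets were higher and 4 lower with miR-376a*A, and the calls over all probe sets turned from 3360 higher and 3628 lower to 2634 and 4343. Between the forms centring turned 3338 higher and 2604 lower to 2407 and 3677, and 3961 and 3819 probe sets passed when replicate 2 of miR-376a*A or of miR-376a*G was left out.

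**Figure D3:**
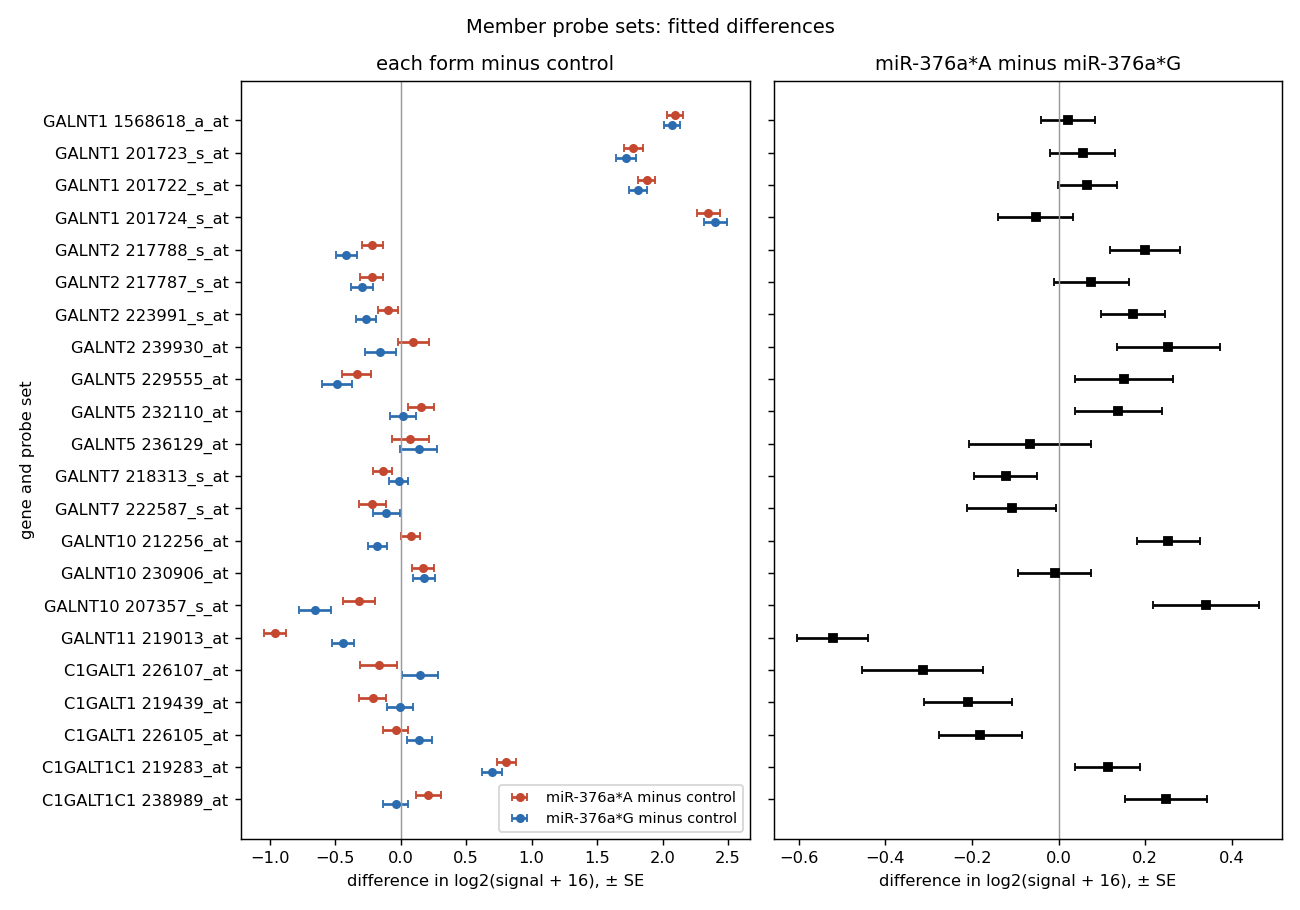
Fitted difference in log2(signal + 16) with its SE (x axis) for each of the 22 tested member probe sets (y axis), for each form minus control on the left and for miR-376a*A minus miR-376a*G on the right, on another scale. The 4 GALNT1 probe sets lie between 1.72 and 2.40 for both forms and near 0 between them, while GALNT11 lies at -0.96 and -0.44 and at -0.52 between the forms.

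Stretches before the transcription start are shown for the genes that were higher with both forms, GALNT1 and C1GALT1C1, and for GALNT11, which was lower with both. Each has 250 bases, from RefSeq (GRCh38.p14), written 5′ to 3′ on the gene's strand. The table lists 3 starts for GALNT1, of which the most downstream is shown (chr18:35581490-35581739, plus strand), with C1GALT1C1 at chrX:120630055-120630304 (minus strand) and GALNT11 at chr7:152074787-152075036 (plus strand). GALNT5 was not matched, and the other 7 members had 9 entries. Capitals mark the GC box GGGCGG and the CCAAT box CCAAT on either strand; a pair of the GALNT1 matches overlap each other.
GALNT1: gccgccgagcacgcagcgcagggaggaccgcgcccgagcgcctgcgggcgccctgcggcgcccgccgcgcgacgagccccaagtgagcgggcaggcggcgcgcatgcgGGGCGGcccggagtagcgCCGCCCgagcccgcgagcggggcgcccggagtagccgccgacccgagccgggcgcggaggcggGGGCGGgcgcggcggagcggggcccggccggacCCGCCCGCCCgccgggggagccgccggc
C1GALT1C1: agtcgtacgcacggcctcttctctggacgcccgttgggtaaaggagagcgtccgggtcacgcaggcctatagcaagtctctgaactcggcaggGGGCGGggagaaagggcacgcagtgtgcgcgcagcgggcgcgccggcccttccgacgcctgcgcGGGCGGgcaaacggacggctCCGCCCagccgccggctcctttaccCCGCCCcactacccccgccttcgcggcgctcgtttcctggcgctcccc
GALNT11: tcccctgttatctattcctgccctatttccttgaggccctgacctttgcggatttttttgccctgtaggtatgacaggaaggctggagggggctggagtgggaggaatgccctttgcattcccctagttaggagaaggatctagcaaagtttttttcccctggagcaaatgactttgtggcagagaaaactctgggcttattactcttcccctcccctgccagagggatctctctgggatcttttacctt
The C1GALT1C1 window holds 4 GC boxes and the GALNT1 window shown holds 5, while the GALNT11 window holds neither motif. Windows not shown held GC boxes too. That of GALNT10, lower with miR-376a*G on 1 probe set, held 4, and that of GALNT2, also lower with miR-376a*G, held 1. The C1GALT1 window held 1 forward and 3 in reverse and the GALNT7 window 1, and neither gene passed. A link between these motifs and the direction of change was not tested. A GC box was found in 7 of the 9 windows of members, beside 42.6% of all 35116 windows, and a CCAAT box in 3 of 9, beside 32% of all. Of these 9 windows 3 are of GALNT1. Of the other GALNT1 starts the most upstream had 0 GC boxes and 1 CCAAT box and the middle one 1 GC box, so the start shown is the richest of the 3 in GC boxes, and the arrays do not tell which start was used.

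The other genes of the pathway were read from the same fit, each through its probe set with the highest mean. Over all genes read that way 22.6% passed for miR-376a*A against control (10.5% higher, 12% lower), 28.6% for miR-376a*G against control (13.3% higher, 15.3% lower) and 20.5% between the forms (10.8% higher, 9.68% lower). Of 9 tested further GALNT genes 3 rose and 0 fell with miR-376a*A, 1 rose and 2 fell with miR-376a*G, and 2 were higher and 1 lower with miR-376a*A than with miR-376a*G. GALNT6, which modifies fibronectin, rose with both forms. Its mean signal was 61.2 ± 10.2 (SD, n = 3) in the control, 84.5 ± 4.76 (SD, n = 3) with miR-376a*A and 117 ± 8.10 (SD, n = 3) with miR-376a*G. Its differences were 0.39 ± 0.102 and 0.80 ± 0.102 (SE, limma adjusted p = 0.0173 and 0.000112), and -0.41 ± 0.102 between the forms (adjusted p = 0.0145). GALNT13 and GALNT16, both dim, passed as higher with miR-376a*A (0.43 ± 0.137 and 0.32 ± 0.096, SE), whereas another tested probe set of each gave 0.04 and -0.17. GALNT9 and GALNT18 fell with miR-376a*G (-0.42 ± 0.086 and -0.24 ± 0.077, SE) and were lower than with miR-376a*A. Several of these calls lay near the threshold, and were lost with 1 array fewer while the value moved little. GALNT6 with miR-376a*A did not pass without miR-376a*A replicate 3 (0.35), nor between the forms when miR-376a*G replicate 2, or replicate 1 or 2 of miR-376a*A, was left out (-0.40 to -0.36). GALNT13 lost its call without any 1 of the miR-376a*A arrays, miR-376a*G replicate 3 or control replicate 2 or 3 (0.33 to 0.48). GALNT16 did so without control replicate 1 or 3, and without miR-376a*A replicate 2 or 3 (0.27 to 0.32), and GALNT18 without any miR-376a*G array, miR-376a*A replicate 3 or control replicate 2 (-0.27 to -0.21). Other settings ended these 3 calls too. Among them, GALNT13 did not pass after median centring (0.39), after quantile normalization (0.40) or with the mean of its probe sets (0.24). GALNT16 did not after median centring (0.28) or with the mean of its probe sets (0.08). GALNT18 did not after median centring (-0.22) or quantile normalization (-0.20).

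Of 8 tested genes for enzymes that extend or branch the chains, 1 rose and 2 fell with miR-376a*A, and 1 rose and 1 fell with miR-376a*G. GCNT3, which makes branched core 2 and core 4 chains, read 163, 144 and 149.98 in the control and 134.5, 117 and 141 with miR-376a*G, but 47.6, 52.8 and 55.1 with miR-376a*A. It fell by 1.31 ± 0.089 (SE, limma adjusted p = 5.77e-07) with miR-376a*A and was lower by 1.11 ± 0.089 (SE) than with miR-376a*G. Against the control its miR-376a*G value, -0.20 ± 0.089 (SE), did not pass. The galactosyltransferase gene B4GALT3 fell with both forms, by 0.41 ± 0.07 (SE) with miR-376a*A and by 0.81 ± 0.07 (SE) with miR-376a*G, and B4GALT4 rose by 0.30 ± 0.085 and 0.50 ± 0.085 (SE). The B4GALT4 call with miR-376a*A ended without control replicate 2 or 3, and without miR-376a*A replicate 2 or 3 (0.25 to 0.29). Among 6 tested sialyltransferase genes, ST3GAL1, which caps core 1 with sialic acid, was the only one to pass on the brightest probe set. It rose by 0.75 ± 0.093 (SE, adjusted p = 0.00011) with miR-376a*A and by 0.39 ± 0.093 (SE, adjusted p = 0.00864) with miR-376a*G. Its other tested probe sets gave 0.45 and 0.32 with miR-376a*A, and 0.03 and -0.02 with miR-376a*G, so the rise with miR-376a*G rests on 1 probe set. Dimmer probe sets of other genes of this list passed too. For ST3GAL2 1 passed as lower with miR-376a*G (-0.29 ± 0.096, SE) and 2 as higher with miR-376a*A than with miR-376a*G (0.36 and 0.40), and for ST6GALNAC4 1 passed as lower with miR-376a*G (-0.41 ± 0.099, SE). Between the forms ST3GAL1 stood at 0.36 ± 0.093 (SE), which ended when replicate 2 or 3 of miR-376a*G, or replicate 2 of miR-376a*A, was left out (0.29 to 0.34).

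Of 13 tested genes that supply nucleotide sugars, 0 rose and 3 fell with miR-376a*A, 5 rose and 0 fell with miR-376a*G, and 0 were higher and 5 lower with miR-376a*A than with miR-376a*G. The median difference between the forms was -0.18 over this list and 0.02 over all genes. GFPT1, the rate-limiting enzyme of the hexosamine pathway that leads to UDP-N-acetylglucosamine, read 722, 576 and 591 in the control and 625, 616 and 646 with miR-376a*G, but 222, 216 and 229.8 with miR-376a*A. It fell by 1.43 ± 0.083 (SE, limma adjusted p = 1.25e-07) with miR-376a*A and stood at -1.44 ± 0.083 (SE) against miR-376a*G; the other 3 probe sets were also lower, by 0.61 to 1.89 against the control. GNE, which starts sialic acid synthesis, read 88.4, 89.3 and 91.4 with miR-376a*A against 175 to 193 in the control and 186 to 191 with miR-376a*G. SLC35A1, the Golgi transporter of CMP-sialic acid, read 134, 136 and 129 with miR-376a*A against 245 to 272 in the control and 297 to 320.3 with miR-376a*G. Both fell with miR-376a*A, by 0.91 ± 0.071 and 0.90 ± 0.072 (SE), and were lower than with miR-376a*G, by 0.95 ± 0.071 and 1.11 ± 0.072 (SE). With miR-376a*G the largest rises of the list were those of UAP1 (0.50 ± 0.061), which makes UDP-N-acetylhexosamines, SLC35A3 (0.35 ± 0.089), GNPNAT1 (0.28 ± 0.069) and CMAS (0.26 ± 0.06, SE). SLC35A3 lost its call without miR-376a*G replicate 2 or 3, at 0.32 each.

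Of 20 tested genes of proteins that carry such chains, read on the brightest probe set, 3 rose and 0 fell with miR-376a*A, and 2 rose and 2 fell with miR-376a*G. PODXL, a cell-surface sialomucin, read 122, 98.4 and 104 in the control, 459, 473 and 435 with miR-376a*A, and 367, 417 and 392 with miR-376a*G. It rose by 1.93 ± 0.084 and 1.72 ± 0.084 (SE) and was known from these arrays when the list was drawn up. MCAM, a cell adhesion protein, rose with miR-376a*A (0.47 ± 0.073, SE) and was higher there than with miR-376a*G by 0.53 ± 0.073 (SE). Its other tested probe set stood at -0.07 and 0.16 and did not pass, and the mean of both gave 0.20 and 0.35, which passed. The syndecan gene SDC1 rose by 0.35 ± 0.066 with miR-376a*A and fell by 0.35 ± 0.066 with miR-376a*G (SE), a difference between the forms of 0.69 ± 0.066 (SE, limma adjusted p = 1.05e-05). CD55, a complement inhibitor, rose with miR-376a*G by 0.54 ± 0.076 (SE) and was lower with miR-376a*A than with miR-376a*G by 0.52 ± 0.076 (SE). APLP2 passed as lower with miR-376a*G (-0.24 ± 0.08, SE), a call that ended without any 1 of the 9 arrays except control replicate 3 (-0.25 to -0.16). Of its 7 other tested probe sets, 5 also passed as lower with miR-376a*G, at -0.44 to -0.30, and 2 of these passed as lower with miR-376a*A, at -0.41 and -0.24. A pair of dimmer probe sets of PDPN, the sialomucin podoplanin, passed as lower with miR-376a*A (-0.40 and -0.35) and with miR-376a*G (-0.32 and -0.28), while its brightest stood at -0.07 and -0.02.

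Other kinds of O-glycosylation served for comparison. Of 11 tested genes 0 rose and 1 fell with miR-376a*A, and 1 rose and 2 fell with miR-376a*G. POMGNT1, which extends O-mannose chains, fell by 1.16 ± 0.073 (SE, limma adjusted p = 2.75e-07) with miR-376a*A and was lower there than with miR-376a*G by 0.93 ± 0.073 (SE). Of its 2 other tested probe sets 1 passed as lower in both, at -1.13 and -0.67, and 1 stood at 0.19 and 0.07 and did not pass. The mean of the gene's probe sets gave -0.70 and -0.51, which passed. With miR-376a*G it stood at -0.23 ± 0.073 (SE), a call that ended without any miR-376a*G array or miR-376a*A replicate 2 or 3 (-0.24 to -0.22). POGLUT1, which adds O-glucose to Notch, rose by 0.86 ± 0.114 (SE) with miR-376a*G, and the xylosyltransferase gene XYLT1 fell by 0.51 ± 0.071 (SE). Both differed between the forms, at -0.76 ± 0.114 and 0.66 ± 0.071 (SE), as did POMT2 at 0.42 ± 0.1 (SE), the last not without miR-376a*A replicate 1 (0.38). Each of the 6 lists was drawn up with results of these arrays known, and no test was made over any list. All counts read 1 probe set a gene. Dimmer probe sets that passed where the brightest did not include those of B4GALT5 with miR-376a*A (-0.25) and miR-376a*G (0.22). With miR-376a*G they also include those of B4GALT1 (-0.42 and -0.36), GALK2 (-0.30), GALNT12 (0.26) and GFPT1 (0.24). CMAS had one with miR-376a*A (0.29), and the O-GlcNAc transferase gene OGT with both forms (-0.51 and -0.54). Among 11 dimmer tested CD44 probe sets, some passed as higher with miR-376a*A (0.61, 0.28 and 0.15 among them) or miR-376a*G (0.19 among them), and others did not pass.

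**Figure D4:**
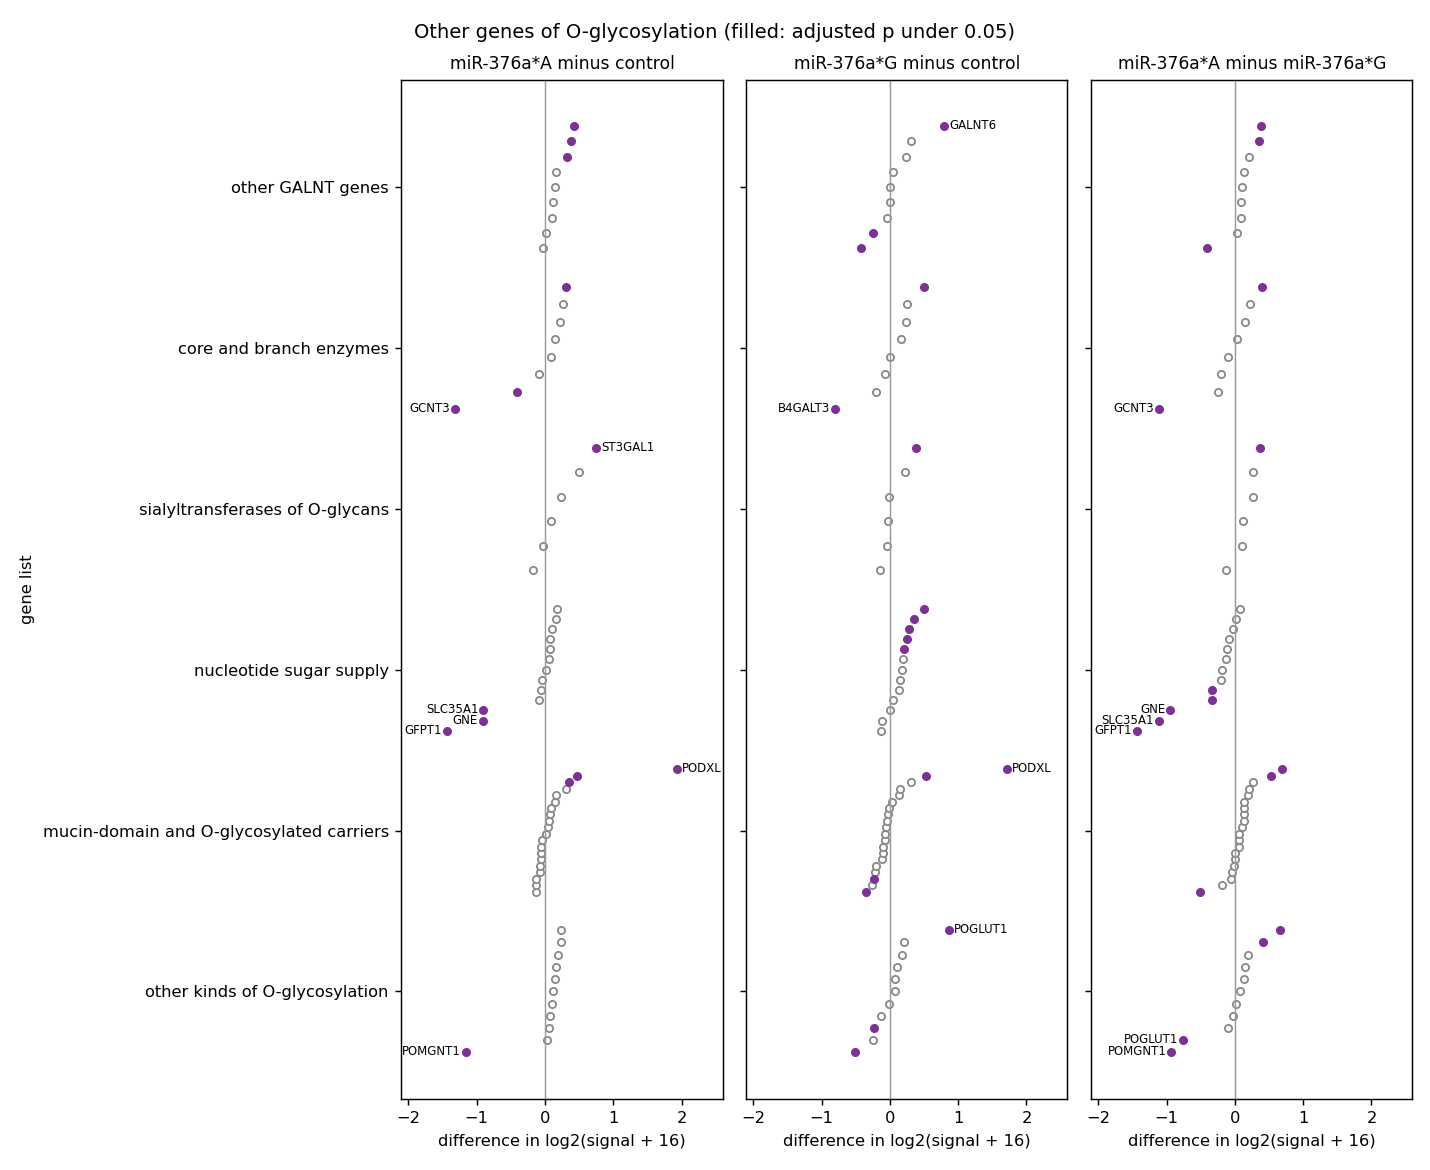
Difference in log2(signal + 16) (x axis) for each tested gene of 6 lists of O-glycosylation genes outside the members (y axis, ordered by value within a list), in the 3 comparisons. Filled points passed the test and those beyond 0.7 are named; GFPT1, GNE and SLC35A1 lie at -1.43, -0.91 and -0.90 with miR-376a*A, and PODXL at 1.93 and 1.72 with miR-376a*A and miR-376a*G.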

How the data were processed

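The authors deposited linear signal intensities for every probe set of each array. The submitters' processing notes name GCOS 1.4.0.036 without a role; how signals were computed and scaled is not given in the sources used here. Each array had a 2% trimmed mean signal of 100.009 to 100.011, so the arrays shared a scale, and a change common to all transcripts would be hidden. Precision is limited by 3 arrays per group.

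After leaving out 62 array controls, log2(signal + 16) was taken without further scaling, and 32768 probe sets with a mean at or above the 40th percentile entered 1 linear model per probe set over all 9 arrays (limma 3.58.1, R 4.3.3; eBayes with an intensity trend; 6 residual and 6.72 prior degrees of freedom; two-sided). The fit was tested on simulated data. Gene names come from the platform annotation, where 41091 probe sets had 1 symbol, 1801 several and 11721 none; all 8 member symbols match a RefSeq gene table. The members and lists were chosen with earlier results of these data known. All member probe sets are described; from each other list up to 4 genes per comparison with the largest passed difference and groups that do not overlap are named. For likeness the 5 genes of highest correlation with GALNT1 were named. Alternatives covered offset, filter, scaling, variance model, array weights, arrays in the fit, probe set rule, replicate block and each array left out. Figures were made with matplotlib 3.10.9 in Python 3.11.15.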

Additional observations from a re-analysis of the deposited data

Results flagged for a closer look

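For 2 of the 22 tested member probe sets the signal differed between the 2 transfected groups in a direct test of miR-376a*A against miR-376a*G. Of all probe sets 18.1% passed in this comparison. GALNT11 219013_at was lower with miR-376a*A by a log2 difference of -0.52. GALNT10 212256_at was higher with miR-376a*A by 0.25, a call that was lost under 9 of the 21 alternatives (0.19 to 0.28). Of the other GALNT10 probe sets, 207357_s_at stood at 0.34 with groups that did not overlap and did not pass, and 230906_at stood at -0.01. Both genes were chosen with results of these arrays known.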

How the results depend on the processing

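No value that passed changed its direction under the 21 alternatives. Of the differences of member probe sets under single alternatives, 1207 kept direction and call, 29 lost and 29 gained a call, and 25 that did not pass in either fit changed sign. For the other genes named, 937 were kept and 69 lost their call. Array weights favoured control replicate 3 (6.94, against 0.198 for control replicate 1). With them 13994, 15262 and 10155 of 32768 probe sets passed for miR-376a*A, miR-376a*G and between the forms. Of the 22 member probe sets 11, 14 and 8 passed there. With 1 probe set per gene 4177, 4993 and 3671 of 20068 features passed in the same order, with 3, 5 and 2 of 8 members. With the mean of a gene's probe sets 4190, 4957 and 3799 of 20068 passed, with 3, 5 and 1 of 8 members. Fewer features were tested in these fits. Between the forms 1 of 22 member probe sets passed after median centring, without the variance trend and with the replicate block. Over all 32768 probe sets 6084, 5653 and 5397 passed there. In the fit of the 2 groups alone 5 of 22 members passed, beside 8707 of 32768 probe sets. With each array left out in turn it was 1 to 4 members and 3819 to 8437 probe sets between the forms, 6 to 8 members and 4729 to 7700 probe sets for miR-376a*A, and 9 to 12 members and 5890 to 8998 probe sets for miR-376a*G. The replicate numbers did not pair the samples (same-numbered deviations correlated at -0.10 to 0.063, 0 of 9 over 0.1), and the replicate block gave 6430, 7952 and 5397 calls. Dim probe sets, those of GALNT5 among them, limit what can be seen.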
